A study of Rattus norvegicus with 8 samples.

Results

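The genes described here mark the endothelial cells that line the blood vessels of the liver. They were taken from a list of 10 symbols that mark sinusoidal or general vascular endothelium (Stab1, Stab2, Lyve1, Pecam1, Kdr, Flt1, Tek, Cdh5, Vwf and Clec4g). For 6 of the 10, Lyve1, Pecam1, Kdr, Flt1, Tek and Cdh5, the platform annotation lists a probe set with 1 symbol, and these 6 of 14511 genes tested are the members. Stab1, Stab2, Vwf and Clec4g were not analysed here.

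The livers came from female Wistar rats, an outbred strain, and whole-organ RNA was hybridised to 8 arrays (Affymetrix Rat Gene 1.0 ST) in 4 groups of 2. One group is the liver left 8 h after partial hepatectomy (PH), in which 2/3 of the organ was removed with the lateral lobes. The others are livers of rats aged 2, 4 and 12 weeks, with no operation named in their labels. How old the operated rats were is not stated in the sources, and sham surgery was not analysed here, so the operation, the age and the hour of sampling cannot be told apart in comparisons with the PH group. Titles name biological replicates but the design text mentions processing in duplicate. The p-values hence set differences between groups against only the spread of these arrays within groups, and some of that spread may be technical.

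The sinusoids are wide capillaries whose endothelium is perforated and has no basement membrane of the usual kind, so that plasma reaches the hepatocytes directly. Their endothelial cells clear waste from the blood with scavenger receptors and depend on vascular endothelial growth factor (VEGF) from their neighbours, which acts through the receptors encoded by Kdr and Flt1. Angiopoietins act through Tek, and Pecam1 and Cdh5 hold endothelial cells to one another. After partial hepatectomy hepatocytes are known to divide first and endothelial cells later, while in the young animal the vessels grow with the organ.

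Values are levels on the log2 scale made by robust multi-array averaging (RMA), so a difference of 1 is 2-fold. The arrays differed in background. Most olfactory receptor genes are used mainly in the nose, so they served as a rough floor, and the median of 1105 of them lay between 3.96 and 4.82, and their 95th percentile between 5.24 and 6.39. All 48 values of the 6 members lay above the 95th percentile of the same array, the lowest being 6.92 for Cdh5. The 12-week arrays stood furthest apart (r = 0.952 over genes, 1838 genes at least 2-fold apart, against r of 0.975 to 0.980 and 432 to 621 genes in the other groups). Hepatocyte markers such as Alb and Apoa1 gave the high summed level of a liver on every array (16.78 to 16.97, log2 of the sum of 12 genes).

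No difference between groups in any of the 6 members passed the test across all genes. Over 6 members and all 6 pairs of groups there were 36 differences, of which 0 had an adjusted p under 0.05 (limma, Benjamini-Hochberg over 14511 genes) and 1 had an unadjusted p under 0.05, in PH against 2 weeks. Over all genes the same test called 0.0345% for PH against 12 weeks, 2.23% for 2 against 12 weeks, 0.110% for 4 against 12 weeks, 0.455% for 2 against 4 weeks, 2.16% for PH against 2 weeks and 0.310% for PH against 4 weeks, so that 0 of 6 is near the background in each. Unadjusted p-values under 0.05 were found for 6.01%, 11.1%, 4.47%, 7.24%, 11.6% and 10.2% of all genes in the same order. The moderated F test over the 4 groups called 1.79% of all genes and 0 members (lowest adjusted p = 0.658, for Cdh5). The levels nevertheless had their own patterns, given here from the receptors of the sinusoid to the junction genes.

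Lyve1 encodes a receptor for hyaluronan found on sinusoidal and lymphatic endothelium (probe set 10724895). Its levels were 10.79 and 10.16 after PH, 10.55 and 10.42 at 2 weeks, 10.45 and 10.37 at 4 weeks, and 10.42 and 10.19 at 12 weeks. The PH arrays held the highest and the lowest of these 8 values, and they overlapped every other group. From the highest to the lowest mean the order was 2 weeks (10.48), PH (10.47), 4 weeks (10.41) and 12 weeks (10.31), and no neighbours in it differed beyond their spread. The means spanned 0.18, or 1.13-fold, and 9.03% of all genes tested had a smaller span. The 2-week arrays lay above both 12-week ones by a margin lost in rounding (0.18 ± 0.26, SE; adjusted p = 0.879), and the difference was 0.29 without the first and 0.06 without the second 12-week array.

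Kdr encodes the main signalling receptor for VEGF on endothelial cells (probe set 10940650). Its levels were 10.37 and 10.16 after PH, 10.49 and 10 (to the nearest hundredth) at 2 weeks, 10.24 and 10.07 at 4 weeks, and 10.51 and 10.11 at 12 weeks. All groups overlapped one another. The means ran from 10.31 at 12 weeks through 10.26 (PH) and 10.25 (2 weeks) to 10.16 at 4 weeks, a span of 0.15 or 1.11-fold, the narrowest among the members. Within groups the SD reached 0.35, at 2 weeks, which is larger than that span.

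Among the members, Flt1 encodes the other VEGF receptor, which binds the ligand tightly and limits how much reaches the product of Kdr (probe set 10756418). It stood at 8.10 and 8.15 after PH, 8.58 and 7.85 at 2 weeks, 7.96 and 7.93 at 4 weeks, and 8.00 and 7.90 at 12 weeks. The PH arrays lay above those of 4 and 12 weeks without overlap, by 0.18 ± 0.27 (SE) and 0.17 ± 0.27, differences smaller than their standard errors (adjusted p = 0.922 and 1). The 2-week mean was the highest (8.22) and rests on the first 2-week array, since the second was the lowest of all 8.

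Tek encodes the angiopoietin receptor Tie2 (probe set 10869946). Its levels were 8.56 and 8.78 after PH, 9.20 and 8.55 at 2 weeks, 8.34 and 8.40 at 4 weeks, and 8.33 and 8.72 at 12 weeks. The order of means was 2 weeks (8.87), PH (8.67), 12 weeks (8.52) and 4 weeks (8.37), with no neighbours apart beyond their spread. The 2-week arrays lay above both 4-week arrays, by 0.50 ± 0.28 (SE; 95% interval -0.13 to 1.14, adjusted p = 0.805), and this was 0.18 without the first 2-week array and 0.83 without the second. The PH arrays also lay above those of 4 weeks (0.30 ± 0.28, adjusted p = 0.823; 0.19 without the second PH array).

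Pecam1 encodes CD31, an adhesion molecule of endothelial contacts that platelets and leukocytes carry too (probe set 10940659). It stood at 8.55 and 8.65 after PH, 8.70 and 8.27 at 2 weeks, 8.26 and 8.78 at 4 weeks, and 8.38 and 7.99 at 12 weeks. The PH arrays lay above the 12-week ones without overlap, and the other pairs of groups overlapped. The difference of PH from 12 weeks was 0.41 ± 0.28 (SE; 95% interval -0.22 to 1.05, adjusted p = 1), and it was 0.61 without the first and 0.22 without the second 12-week array.

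Cdh5 encodes VE-cadherin, the cadherin of endothelial junctions (probe set 10809048), and it had the widest pattern of the 6. Its levels were 7.50 and 6.92 after PH, 8.33 and 7.80 at 2 weeks, 7.63 and 8.01 at 4 weeks, and 7.79 and 7.18 at 12 weeks. The PH arrays lay below those of 2 and of 4 weeks without overlap, and the 2-week arrays lay above those of 12 weeks. The order of means was 2 weeks (8.06), 4 weeks (7.82), 12 weeks (7.49) and PH (7.21), again with no neighbours apart beyond their spread.

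The largest of the 36 differences was that of Cdh5 between PH and 2 weeks, -0.86 ± 0.33 (SE; 95% interval -1.61 to -0.11; unadjusted p = 0.0298, adjusted p = 0.337, limma), or 1.81-fold between the means. It was -1.15 without the first PH array and -0.57 without the second, and leaving out the 2-week arrays in turn gave -0.59 (first) and -1.12 (second). PH minus 4 weeks gave -0.61 ± 0.33 (adjusted p = 0.614), and -0.90 without the first and -0.32 without the second PH array. Against 12 weeks it differed by -0.28 ± 0.33 (adjusted p = 1), and by 0.02 without the first 12-week array and -0.58 without the second. The 2-week mean exceeded the 12-week one by 0.58 ± 0.33 (95% interval -0.17 to 1.33, adjusted p = 0.619), a value of 0.88 without the first 12-week array and 0.28 without the second.

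**Figure D1:**
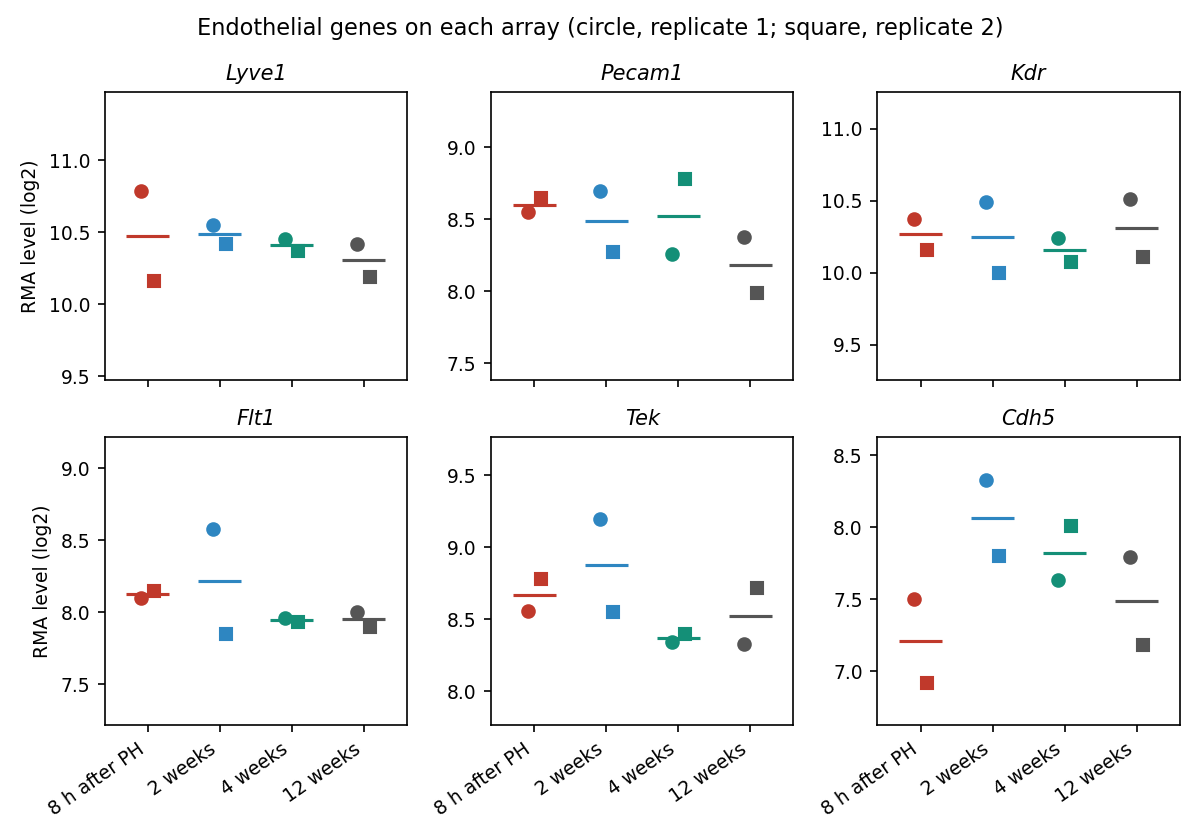
RMA levels (log2) of the 6 endothelial genes on each array, by group, with replicate 1 as a circle, replicate 2 as a square and the group mean as a bar; each panel has its own axis. Kdr overlapped in all pairs of groups (means 10.16 to 10.31), while the means of Cdh5 ran from 7.21 after PH to 8.06 at 2 weeks.

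Over the 36 differences, 9 had groups that did not overlap. They numbered 2 of 6 for PH against 12 weeks (29.0% of all genes), 2 for 2 against 12 weeks (34.4%), 0 for 4 against 12 weeks (25.1%), 1 for 2 against 4 weeks (40.2%), 1 for PH against 2 weeks (46.8%) and 3 for PH against 4 weeks (44.1%). With 2 arrays a group, such separation was thus seen in 25.1% to 46.8% of all genes.

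The size of change that the data leave possible was read from the intervals. These use a spread pooled over all groups, though over all genes the 12-week arrays stood furthest apart. Array weights were 0.50 at 12 weeks and 1.12 to 1.45 in the other groups. Intervals against 12 weeks may thus be too narrow, and the others too wide. The 95% intervals, not adjusted for the number of genes, had half-widths of 0.60 to 0.75 and lay wholly within a 2-fold change in 29 of the 36 differences. For Lyve1, Kdr and Flt1 this held in 6 of 6 comparisons each, for Pecam1 and Tek in 5 of 6, and for Cdh5 in 1 of 6. The intervals thus allow changes of under 2-fold in every member, and larger ones in some comparison for Pecam1, Tek and Cdh5. By comparison, the interval lay within 2-fold for 66.1% of all genes in PH against 12 weeks, where 4 of 6 members did so, and for 58.8% in 2 against 12 weeks, where 5 of 6 did. The counts were 5 of 6 in each of the other comparisons, against 67.0% (4 against 12 weeks), 63.5% (2 against 4 weeks), 59.7% (PH against 2 weeks) and 60.2% (PH against 4 weeks).

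**Figure D2:**
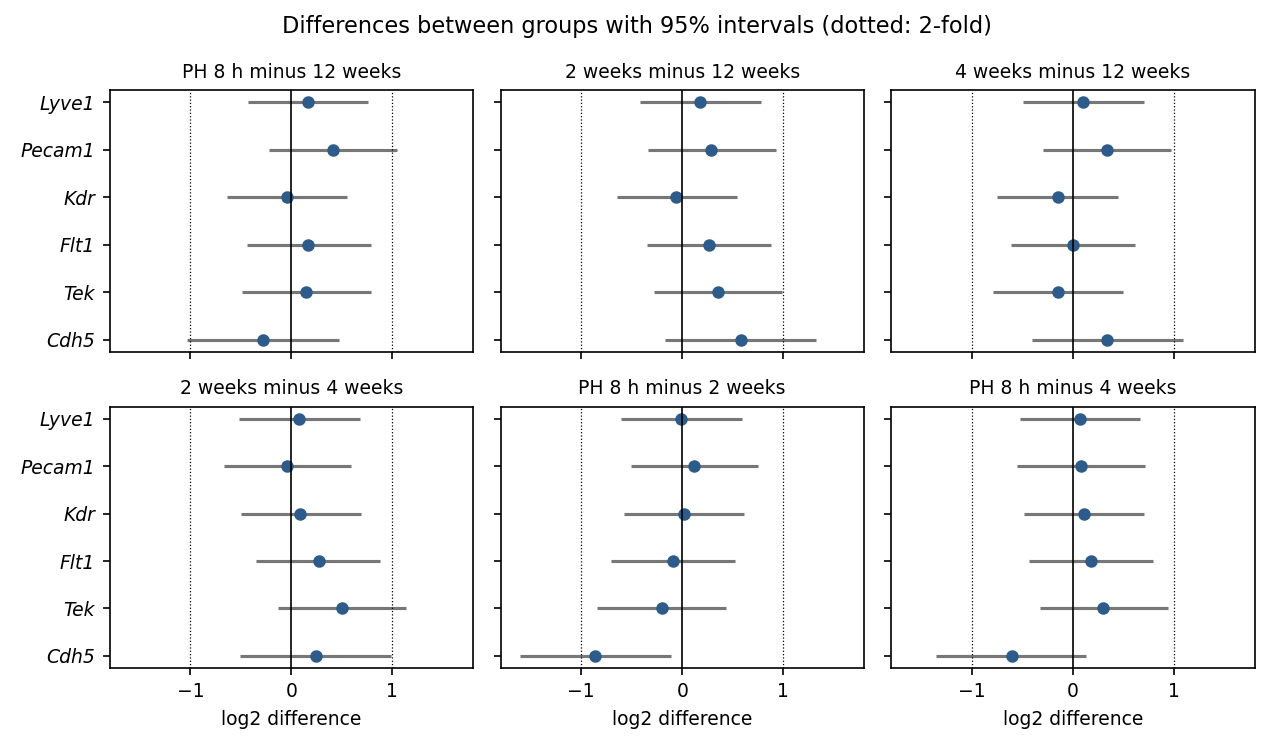
Differences (log2, horizontal axis) between each pair of groups for the 6 genes, as points with 95% intervals from the limma model; dotted lines mark a 2-fold change. Of 36 intervals 35 include 0, and the exception is Cdh5 for PH minus 2 weeks, at -0.86.

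The span of the group means placed the members apart from one another. For Lyve1, Kdr and Flt1 the spans were 0.18, 0.15 and 0.27, wider than those of 9.03%, 5.82% and 22.4% of all genes. Pecam1 (0.41) and Tek (0.50) lay near the median of all genes, 0.44, with 46% and 58.7% of genes below them. The span of Cdh5, 0.86, was wider than that of 84.2%. The median over the members was 0.34, and that over the 7256 genes in the upper part of the level range (from the median level up) was 0.52. These percentages describe the members and are no test of them.

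**Figure D3:**
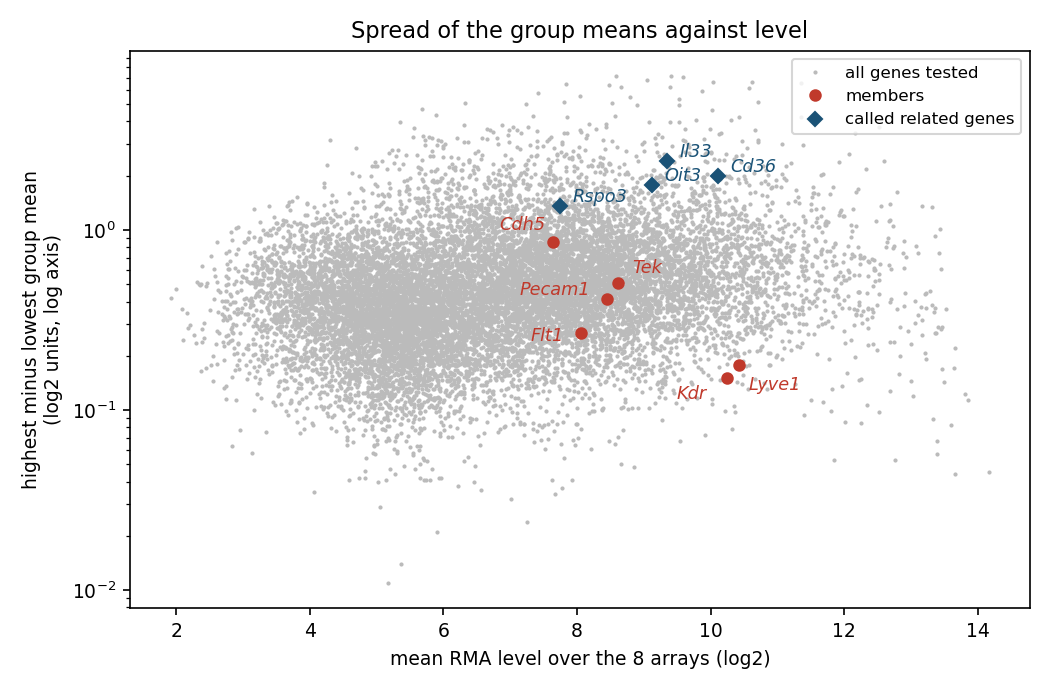
Highest minus lowest group mean (log2 units, log axis) against the mean RMA level over the 8 arrays for 14511 genes (grey). The 6 members are red circles, and the 4 related genes of the sinusoidal list with a call are blue diamonds. Kdr and Lyve1 lie low in the cloud (0.15 and 0.18), Cdh5 at 0.86, and the 4 related genes above the members.

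A single array moved several members at once. On the first 2-week array all 6 members stood above their own mean over the 8 arrays, by 0.40 on average, and 3 of them (Flt1, Tek and Cdh5) had their highest value there. On the second 2-week array 2 of 6 stood above their mean and the average was -0.09. The median difference of the members between 2 and 12 weeks was 0.28 (median of all genes -0.01), 0.05 without the first 2-week array and 0.57 without the second. The lowest average, -0.22, was that of the second 12-week array. Marker levels of other cells on the 2-week arrays stand beside this: the summed erythroid markers (8 of 12 measured) were 11.38 on the first and 10.54 on the second, against 8.51 to 8.64 after PH, 9.98 and 10.25 at 4 weeks, and 8.92 and 8.99 at 12 weeks. Their part in the members' levels was not tested.

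Across the 8 arrays the members followed one another unevenly. Pearson's r over the 15 pairs ran from -0.02 (Lyve1 and Tek) to 0.81 (Flt1 and Tek), and it was 0.67 for the VEGF receptors Kdr and Flt1 and 0.12 for Cdh5 and Tek. The points share arrays and their normalization, so these values are descriptions over 8 arrays.

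The genes outside the lists whose pattern was most like the members' mean profile over the 8 arrays, among 7157 genes of at least median level, were Rassf2 (r = 0.95), Bcam (0.93), Nsmce2 (0.93), Pold3 (0.91) and Mlycd (0.90). For single members the closest were Arf3 and Fem1b for Lyve1 (0.96 each), Ninj1 (0.89) and Mapk8 (0.85) for Pecam1, Myo10 (0.97) and Ctsh (0.95) for Kdr, Fcnb and Rassf2 for Flt1 (0.93 each), Mcrs1 (0.97) and Adprh (0.94) for Tek, and Maz (0.97) and Cyp2b2 (0.96) for Cdh5. Each is the best of a large search over 8 points and was not tested. The spans differ widely behind a like shape: the group means of Cyp2b2 spanned 4.06 and those of Cdh5 0.86.

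Other endothelial genes were read from 5 lists, in which 83 of 94 genes were measured. In these, 0 genes were called for PH against 12 weeks, 4 against 12 weeks and PH against 4 weeks (2, 8 and 4 genes with an unadjusted p under 0.05 in limma). Called were 3 for 2 against 12 weeks (1 higher, 2 lower), 1 for 2 against 4 weeks (lower) and 3 for PH against 2 weeks (2 higher, 1 lower). That is 3.61%, 1.2% and 3.61% of the 83, beside 2.23%, 0.455% and 2.16% of all genes. All of these calls involve the 2-week arrays and fall on 4 genes of the sinusoidal list, Il33, Cd36, Rspo3 and Oit3.

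Il33 encodes an alarm cytokine stored in the nuclei of endothelial and other cells. Its levels were 10.09 and 10.14 after PH, 7.51 and 7.90 at 2 weeks, 9.82 and 9.90 at 4 weeks, and 9.45 and 10.01 at 12 weeks. Both 2-week arrays lay far below the other 6. Il33 was lower at 2 than at 12 weeks (-2.02 ± 0.26, SE, adjusted p = 0.00748) and than at 4 weeks (-2.15 ± 0.26, adjusted p = 0.0121). It was higher after PH than at 2 weeks by 2.41 ± 0.26 (adjusted p = 0.0033). The contrasts share the 2-week arrays. The call against 12 weeks was lost without the first 2-week array (-1.83, adjusted p = 0.069), and that against 4 weeks without any single array of 2 or 4 weeks (adjusted p of 0.062 to 0.12). The call of PH against 2 weeks was kept with each of the 8 arrays left out.

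Cd36 encodes a fatty acid and scavenger receptor of sinusoidal endothelium that hepatocytes and macrophages make as well. It stood at 10.30 and 11.00 after PH, 8.86 and 8.46 at 2 weeks, 10.40 and 10.78 at 4 weeks, and 10.16 and 10.91 at 12 weeks, so both 2-week arrays were again the lowest. It was lower at 2 than at 12 weeks (-1.88 ± 0.35, adjusted p = 0.0334) and higher after PH than at 2 weeks (1.99 ± 0.35, adjusted p = 0.0272). Averaged over its probe sets, the differences were -1.48 and 1.66 and were not called (adjusted p = 0.14 and 0.093).

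Oit3 encodes a secreted protein of liver sinusoids. Its levels were 8.43 and 8.70 after PH, 10.56 and 10.11 at 2 weeks, 8.96 and 8.51 at 4 weeks, and 8.44 and 9.27 at 12 weeks. The 2-week arrays were the highest. It was lower after PH than at 2 weeks (-1.77 ± 0.33, adjusted p = 0.0363), while 2 weeks minus 12 weeks gave 1.48 ± 0.33 without passing (adjusted p = 0.0704).

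Rspo3 encodes an R-spondin, a secreted enhancer of Wnt signalling that central vein endothelium makes. Its levels were 7.49 and 7.68 after PH, 8.63 and 8.23 at 2 weeks, 7.62 and 8.18 at 4 weeks, and 7.05 and 7.10 at 12 weeks. The 2-week arrays were the highest and the 12-week ones the lowest. It was higher at 2 than at 12 weeks by 1.36 ± 0.27 (adjusted p = 0.0421), a call lost with any 1 of the 8 arrays left out (adjusted p of 0.051 to 0.28), while the difference ran from 1.15 to 1.56.

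The calls of Cd36, Oit3 and Rspo3 were also lost with median centring (adjusted p of 0.054 to 0.069) and over all probe sets (adjusted p of 0.064 to 0.081). Those of Cd36 (2 against 12 weeks, PH against 2 weeks) were kept with 3 and 2 of the 8 arrays left out in turn, and that of Oit3 with 2. At 2 weeks markers of other cells differed as well. Against 12 weeks, 3 of 8 erythroid genes (Alas2 by 2.74 ± 0.35, adjusted p = 0.00748), 7 of 8 genes of dividing cells (Top2a by 2.99 ± 0.37, adjusted p = 0.00686) and 3 of 12 stellate and fibroblast genes (Des by 1.46 ± 0.29, adjusted p = 0.0456) were called higher. The summed levels at 2 weeks and at 12 weeks were 10.88 and 10.41 against 8.12 and 8.60 for dividing cells, and 12.96 and 12.71 against 11.73 and 11.53 for stellate and fibroblast markers. The part of these cells in the levels of the 4 genes was not tested. In whole tissue, fewer cells of a type and less RNA per cell cannot be told apart.

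**Figure D4:**
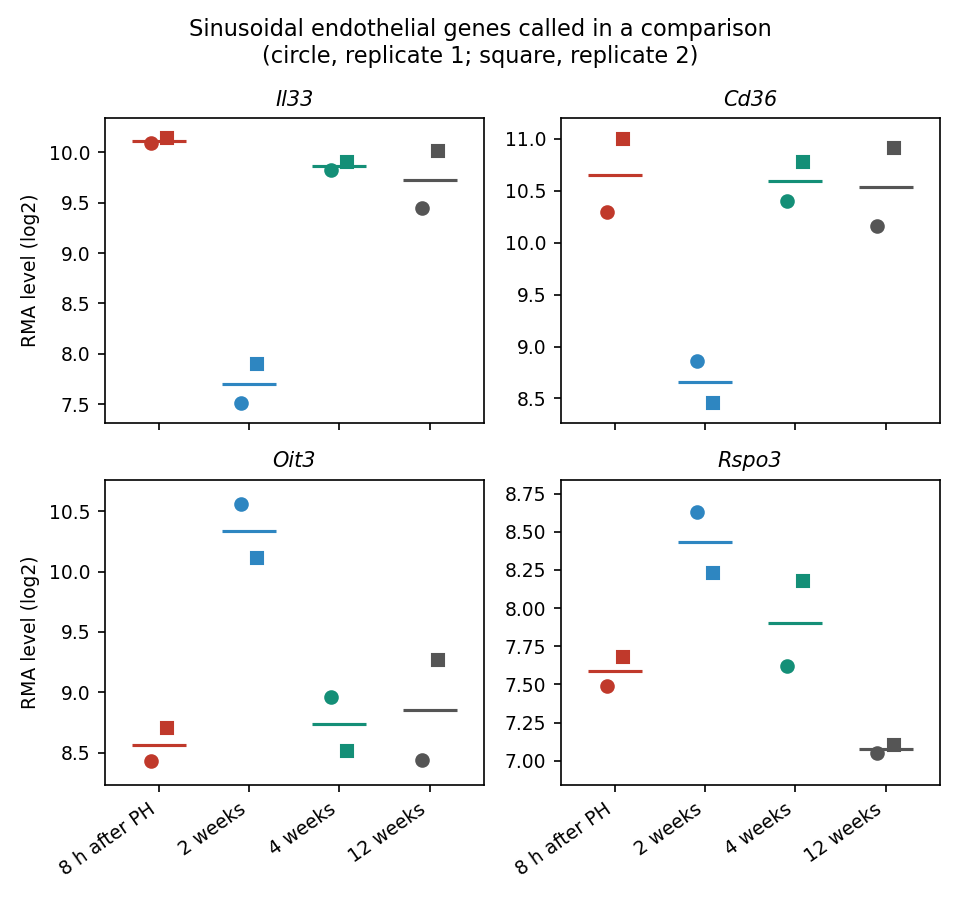
RMA levels (log2) of Il33, Cd36, Oit3 and Rspo3 on each array, by group, with replicate 1 as a circle, replicate 2 as a square and the mean as a bar. The 2-week arrays are the lowest for Il33 (7.51 and 7.90) and Cd36 (8.86 and 8.46) and the highest for Oit3 (10.56 and 10.11) and Rspo3 (8.63 and 8.23).

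In the list of further genes shared by all endothelium, 26 of 29 were measured and 0 were called in any comparison (limma; 0 to 6 genes with an unadjusted p under 0.05, the latter for PH against 2 weeks). The genes with the highest mean level in it are S1pr1, a receptor for sphingosine-1-phosphate, and Eng, the TGF-beta co-receptor endoglin. S1pr1 stood at 9.86 and 9.56 after PH, 9.99 and 9.38 at 2 weeks, 9.74 and 9.99 at 4 weeks, and 10.22 and 10.20 at 12 weeks, where both arrays lay above the other 6. PH differed from 12 weeks by -0.50 ± 0.27 (adjusted p = 0.958). Eng stood at 9.84 and 9.47, 10.19 and 9.63, 9.84 and 9.60, and 9.93 and 9.52 in the same order of groups, which all overlapped.

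The direction within that list was one-sided for PH against the younger livers. Below 0 were 24 of 26 genes for PH minus 2 weeks (median -0.43, where all genes had 0.03 and 53.1% above 0) and 23 of 26 for PH minus 4 weeks (median -0.26, all genes -0.01 and 49.2%). For PH minus 12 weeks 17 of 26 were below 0 (median -0.05), and for 2 minus 12 weeks 21 of 26 were above (median 0.39, all genes -0.01 and 48.4%). Of the 6 members, 4 were below 0 for PH minus 2 weeks (median -0.05) and 1 for PH minus 4 weeks (median 0.09). None of these counts was tested. Some of the genes lay near the floor. On the first PH array Sox7, Sox17, Sox18, Cldn5, Tal1 and Bmx (4.91 to 5.91) were below the olfactory receptors' 95th percentile of 5.92. On the second PH array (5.50) Sox17 and Sox18 were above it and the others named were not. All of these are among the genes below 0 for PH minus 2 weeks. With other scalings and with each array left out, both chosen after seeing the data, between 20 and 24 of 26 were below 0 for PH against 2 and against 4 weeks. The median was -0.29 for PH minus 2 weeks and 0.22 for 2 minus 12 weeks without the first 2-week array, and -0.13 for PH minus 4 weeks without the first 4-week array. Markers of several other cells ran the same way. For PH minus 2 weeks 12 of 12 stellate and fibroblast genes (median -1.12), 8 of 8 genes of dividing cells (-2.28) and 7 of 8 erythroid genes (-1.95) were below 0. For PH minus 4 weeks this held for 11 of 12 (-0.76), 8 of 8 (-1.28) and 7 of 8 (-0.94), and for 7 of 7 bile duct genes (-0.30). Stellate and fibroblast markers summed to 13.40 and 12.22 on the 4-week arrays and to 11.83 and 11.84 after PH. Their 4-week mean thus leans on the first array. The bile duct genes Epcam, Krt7, Cftr, Cldn4 and Muc1 (5.56 to 5.81) were also below 5.92 on the first PH array. On the second (5.50) only Cftr was (5.18). Spp1 stood at 11.77 and 5.83 at 4 weeks, and at 6.63 and 6.99 after PH. Other lists were less one-sided or had medians nearer 0. For PH minus 2 weeks, 5 of 11 macrophage (0.02), 5 of 10 lymphocyte (-0.04) and 4 of 7 bile duct genes (-0.04) were below 0. So were 10 of 12 hepatocyte (-0.03) and 5 of 6 platelet genes (-0.26). For PH minus 4 weeks it was 8 of 11 macrophage (-0.12), 8 of 10 lymphocyte (-0.37), 6 of 12 hepatocyte (0.04) and 5 of 6 platelet genes (-0.12). The part of other cells in the list's direction was not tested.

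**Figure D5:**
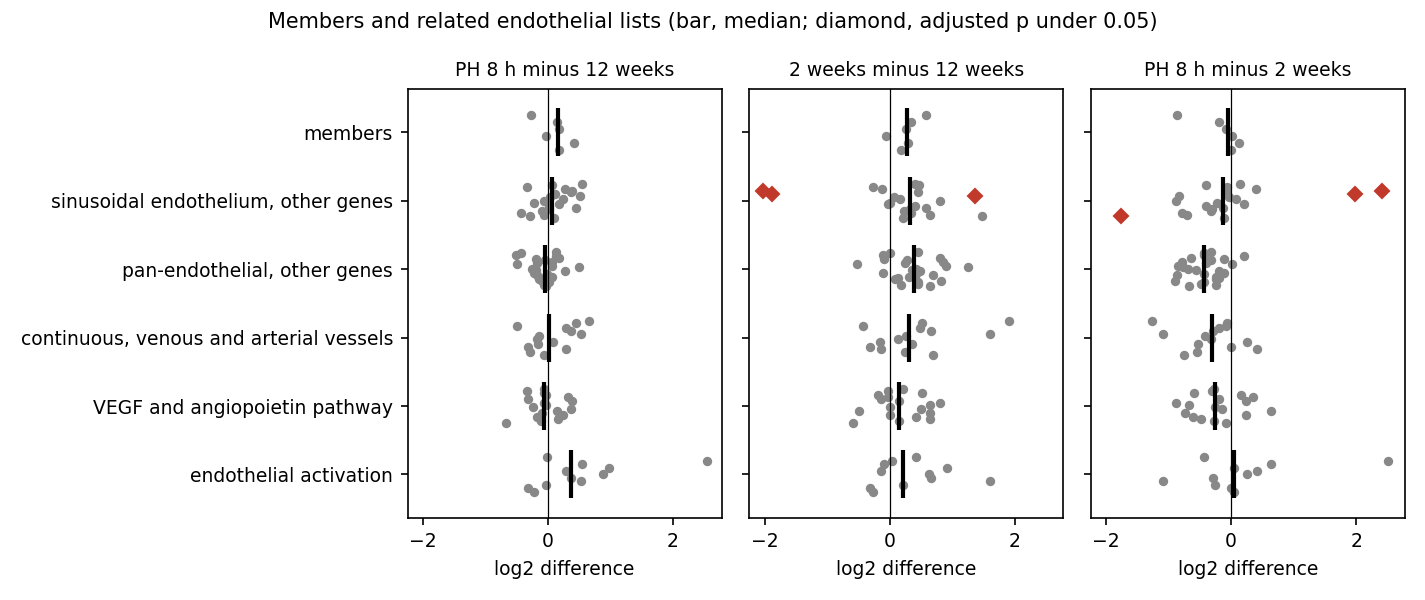
Differences (log2, horizontal axis) of the members and of 5 related lists for PH minus 12 weeks, 2 weeks minus 12 weeks and PH minus 2 weeks; each dot is a gene, bars are medians and red diamonds are genes with an adjusted p under 0.05. The diamonds lie only in the sinusoidal list, and the median of the pan-endothelial list was -0.43 in the right panel.

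Genes of the VEGF and angiopoietin pathway were measured for 18 of 20, with 0 calls in every comparison (limma; at most 5 genes with an unadjusted p under 0.05, for PH minus 2 weeks). The medians lay between -0.26 (PH minus 2 weeks) and 0.16 (2 minus 4 weeks), the latter being 0.08 without the first 2-week array and 0.07 with scaling to the 75th percentile. Vegfa encodes the ligand of both VEGF receptors among the members. It stood at 9.39 and 8.98 after PH, 9.44 and 9.12 at 2 weeks, 10.17 and 9.06 at 4 weeks, and 10.01 and 9.73 at 12 weeks. The 12-week arrays lay above those of PH (-0.68 ± 0.37 for PH minus 12 weeks, adjusted p = 0.959) and of 2 weeks (-0.59 ± 0.37 for 2 minus 12 weeks, adjusted p = 0.665). Hif1a, which encodes an oxygen-regulated factor that controls Vegfa, stood at 10.32 and 9.92 after PH and between 9.64 and 9.96 on the other 6 arrays (PH minus 12 weeks 0.38 ± 0.23, adjusted p = 1). The ligands of Tek were named for their role after their values were seen. Angpt1 lay between 5.38 and 6.06 and Angpt2 between 5.53 and 5.93 over the 8 arrays, and neither was called. They lay above the olfactory receptors' 95th percentile of the same array on 5 of 8 and 6 of 8 arrays.

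Of the list for large and continuous vessels 14 of 18 genes were measured, again with 0 calls (limma; at most 3 with an unadjusted p under 0.05, for 2 minus 12 weeks). Its median was 0.32 for 2 minus 12 weeks (0.14, with 8 of 14 above 0, without the first 2-week array). For PH minus 2 weeks 12 of 14 were below 0 (median -0.31), and 9 of 14 without that array (-0.22). Sparcl1, a matrix protein, stood at 9.12 and 9.13 after PH and 8.85 and 8.51 at 12 weeks, a difference of 0.45 ± 0.26 (adjusted p = 0.99). Nr2f2, a transcription factor of venous identity, overlapped between PH (9.04 and 8.49) and 12 weeks (9.17 and 8.66).

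Endothelial activation genes, 11 of 12 measured, were led in level by Icam1, a leukocyte adhesion molecule, and Cxcl1, a neutrophil attractant that hepatocytes and macrophages also release. In this list 0 genes were called (limma; 2 with an unadjusted p under 0.05 for PH minus 12 weeks, 3 for 2 minus 12 weeks), and its median for PH minus 12 weeks was 0.37 (0.16, with 6 of 11 above 0, without the first 12-week array). Some of these genes lay near the floor. Edn1, the gene at this median, stood at 4.92 and 5.35 after PH and at 4.55 and 4.98 at 12 weeks. The olfactory receptors' 95th percentile on these arrays was 5.92 and 5.50 after PH and 6.39 and 5.24 at 12 weeks. Sele was below it on these arrays too. Cxcl1 stood at 9.76 and 9.74 after PH, 6.71 and 7.76 at 2 weeks, 8.03 and 10.34 at 4 weeks, and 7.61 and 6.79 at 12 weeks. It differed between PH and 12 weeks by 2.55 ± 0.68 (adjusted p = 0.429), and the 4-week arrays differed by more than 2 log2 units between themselves. Icam1 did not separate the groups (8.61 and 8.01 after PH, 7.87 and 8.84 at 12 weeks; -0.04 ± 0.38, adjusted p = 1).

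Markers of other cells that share genes with endothelium were read beside the members. Summed macrophage markers (11 of 12 measured, among them Clec4f and Cd68) lay between 12.82 and 13.23 on all arrays, with 0 genes called in any comparison (limma; at most 2 with an unadjusted p under 0.05). Single macrophage genes varied more than the sum, and these were named after their values were seen: Marco stood at 7.94 and 5.81 and Vsig4 at 8.90 and 5.98 on the 12-week arrays, against 8.11 to 9.39 and 7.92 to 9.53 on the other 6. Platelet and megakaryocyte markers (6 of 11) lay between 9.40 and 9.49 after PH, 10.05 and 10.14 at 2 weeks, 9.42 and 9.65 at 4 weeks, and 9.14 and 9.19 at 12 weeks. Of these Itgb3, which endothelium also expresses, was called higher at 2 than at 12 weeks (1.45 ± 0.24, adjusted p = 0.0219), while Pf4, the platelet-defining chemokine, was not (0.36 ± 0.24, adjusted p = 0.693). The platelet sum leans on Itgb3, the highest of these genes on every array (9.62 and 9.64 at 2 weeks, 8.08 and 8.28 at 12 weeks). On the first PH array Ppbp, Gp9, Gp5 and Gp1ba (4.89 to 5.87) were below the olfactory receptors' 95th percentile of 5.92. Lymphocyte markers were highest at 12 weeks, where they summed to 9.98 and 10.20, against 9.27 and 9.21 after PH, 9.33 and 9.40 at 2 weeks, and 9.43 and 9.67 at 4 weeks. Many of these genes lay near the floor. The olfactory receptors' 95th percentile was 6.39 on the first 12-week array, where only Cd79b (6.58) and Gzmb (9.10) lay above it. It was 5.24 on the second, where all but Ms4a1 (5.01) lay above it. Below 0 against 12 weeks were 10 of 10 after PH, 10 of 10 at 2 weeks and 9 of 10 at 4 weeks, with 0 called (limma; 3, 5 and 2 with an unadjusted p under 0.05). The part of these cells in the levels of Pecam1, which they share, was not tested. On the first 4-week array the bile duct markers summed to 11.94 against 8.64 to 9.43 on the other 7, through Spp1 (11.77 there, 5.83 on the second 4-week array); that array held neither the highest nor the lowest value of any member.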

How the data were processed

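The authors deposited 1 table of log2 values for 29214 probe sets and 8 arrays, which per the submitters' processing notes are RMA values from the Expression Console software. Versions, filters and build: not given in the sources used here. The platform annotation gave 1 symbol for 15316 probe sets, several for 317 and none for 13581. Of the single symbols 15285 matched the gene table of GRCr8, from which only names were taken. The probe set with the highest mean stood for a gene (14511 genes). All 6 contrasts came from 1 model of 4 group means in limma 3.58.1 (R 4.3.3; 4 residual and 4.27 prior degrees of freedom), with adjusted p under 0.05 as the threshold and no filter. On simulated data for PH against 12 weeks (14511 genes, 200 of them changed), 19.6% of genes changed by 1 log2 unit and 94.0% of those changed by 2 were found. The simulation gave a gene the same independent spread on every array. It left out the wider spread of the 12-week arrays, so these shares may be too high for this comparison. The number of arrays limits the precision.

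Members and lists were chosen with earlier results of these data known. Named were all members, called genes of the related lists or else the 2 with the highest level, the first markers of other lists, and the closest patterns. Olfactory genes were to be those with symbols in Olr; current Or symbols were added after seeing the annotation. Alternatives were 2 other scalings, a level filter, averaged or all probe sets, 2 groups only, array weights, a variance trend, the replicate number as a block, a threshold of 0.01 and leaving out each array. The replicate numbers were checked: deviations of same-numbered arrays correlated by 0.02 to 0.57 between groups, most for PH with 12 weeks. In the main model the numbers are used as names only. With the replicate number as a block, calls over all genes rose in every comparison. They rose from 5 to 41 for PH against 12 weeks and from 323 to 515 for 2 against 12 weeks.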

Additional observations from a re-analysis of the deposited data

How the results depend on the processing

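In 648 re-estimates of the 36 member differences, 0 were called, with a lowest adjusted p of 0.17 (limma). Many of these repeat the main estimate, as the setting changed only the test or left out an array of a group not compared. Taken at 2 decimals, the sign turned in 29 of the 648. These fell on 21 of the 36 differences, all of 0.28 or less. Flt1 in 4 minus 12 weeks, at 0.00, has no sign at 2 decimals and ran from -0.06 to 0.05. With the 75th percentile Lyve1 gave -0.01 (2 minus 4 weeks) and 0.04 (PH minus 2 weeks). With median centring Pecam1 gave 0.03 (2 minus 4 weeks). Leaving out 1 array at a time gave these ranges. PH minus 12 weeks: Lyve1 -0.15 to 0.48, Kdr -0.24 to 0.16, Tek -0.04 to 0.35, Cdh5 -0.58 to 0.02. 2 minus 12 weeks: Kdr -0.31 to 0.19, Flt1 -0.10 to 0.63. 4 minus 12 weeks: Lyve1 -0.02 to 0.21, Kdr -0.35 to 0.05, Tek -0.35 to 0.04. 2 minus 4 weeks: Pecam1 -0.30 to 0.22, Kdr -0.16 to 0.34, Flt1 -0.10 to 0.63, Cdh5 -0.02 to 0.50. PH minus 2 weeks: Lyve1 -0.33 to 0.31, Pecam1 -0.10 to 0.33, Kdr -0.23 to 0.26, Flt1 -0.46 to 0.27, Tek -0.53 to 0.12. PH minus 4 weeks: Lyve1 -0.25 to 0.39, Pecam1 -0.18 to 0.34. The members' median ran from 0.05 to 0.57 for 2 minus 12 weeks, -0.06 to 0.42 for 2 minus 4 weeks and -0.34 to 0.19 for PH minus 2 weeks.

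Calls among the 83 related genes fell from 3 to 1 for 2 minus 12 weeks with median centring, all probe sets, 2 groups only, array weights or the 0.01 threshold, and from 3 to 1 for PH minus 2 weeks with median centring, all probe sets or 0.01. For 2 minus 4 weeks the count of 1 became 2 with the 75th percentile, 3 with array weights and 0 at 0.01. With 1 array left out the counts ran from 0 to 3, 0 to 3 and 1 to 3 for 2 minus 12 weeks, 2 minus 4 weeks and PH minus 2 weeks. With the replicate block the count for 2 minus 4 weeks was 2, and 0 members were called. Where a group was left with 1 array, that array was assumed to vary like those of the other groups. The cause was not tested.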
